A study of Mus musculus with 4 samples.

Results

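The genes described here are 10 transcription factors of mouse pluripotency: Pou5f1 (OCT4), Sox2, Nanog, Esrrb, Klf2, Klf4, Tfcp2l1, Zfp42 (REX1), Tbx3 and Prdm14. They were chosen by name from a table of 20380 genes, and all 10 were found in it. The table comes from a pooled CRISPR-Cas9 knockout screen in E14 mouse embryonic stem cells (an established line) with a tdTomato reporter of the endogenous retrovirus MERVL. All cells were grown on gelatin with 15% serum and the cytokine LIF at 1000 U/mL, were transduced with the guide library and were selected with puromycin. MERVL-positive cells, sorted for the reporter at day 5, gave 2 libraries, and total cells of the same screen gave 2. The titles call the libraries of a group sequencing repeats and name no separate cultures, so the spread between them may be technical.

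POU5F1 and SOX2 bind DNA as partners and, with NANOG, hold embryonic stem cells in the pluripotent state. ESRRB, KLF2, KLF4, TFCP2L1, TBX3 and PRDM14 belong to the wider network of the naive state, in which several factors can stand in for each other, and Zfp42 is a marker of that state. MERVL is switched on at the 2-cell stage of the embryo and, in culture, in a small fraction of stem cells that resemble it. In those cells the POU5F1, SOX2 and NANOG proteins are low. A screen of this kind asks whether the loss of a gene makes cells more or less frequent in the reporter-positive fraction.

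The screen gives each gene 1 value for the contrast of the groups and none by library, so no member has a spread between libraries and the depth is unknown. Values are log2 fold changes of guides, which the authors' deposited table gives without naming the numerator. Values above 0 are taken to mean that guides were more abundant among MERVL-positive than among total cells, which is likely but not settled. The basis is the study's title, which ties loss of Ints7 to MERVL activity, together with the values of Ints7. Ints7 had an enrichment p of 0.00714 against a depletion p of 0.846 per the authors' deposited table. Its log2 fold change was 0.14, with 3 guides up and 1 down per the authors' deposited table. The false discovery rate for its enrichment was 0.931 per the authors' deposited table. Since the title states a finding of the screen, Ints7 does not test this reading independently. If the numerator were total cells, all directions given here would be the opposite. From the number of sorted cells and of library guides in the labels, an average of 3.84 sorted cells stood behind each guide. For a gene with 6 guides this average is 23.0 cells, and the actual number behind any guide is unknown. With so few cells, an effect of a knockout could go uncalled.

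No member passed a false discovery rate of 0.05 in either direction per the authors' deposited table, where 0% of all genes passed for enrichment and 0.00491% for depletion by MAGeCK. At an unadjusted p under 0.05, 1 of the 10 members, Esrrb, passed for enrichment per the authors' deposited table, against 5.02% of all genes. None passed for depletion per the authors' deposited table, against 5.07% of all genes. A single member out of 10 is close to these backgrounds. The members did not lie on one side. Of the 10, 4 had a log2 fold change below 0, which held for 52.0% of all genes per the authors' deposited table. Their median was 0.056 beside -0.021 over all genes, and they ran from -1.19 for Pou5f1 to 0.62 for Esrrb per the authors' deposited table. The median size of the change, without its sign, was 0.27 for the members and 0.29 for all genes.

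**Figure D1:**
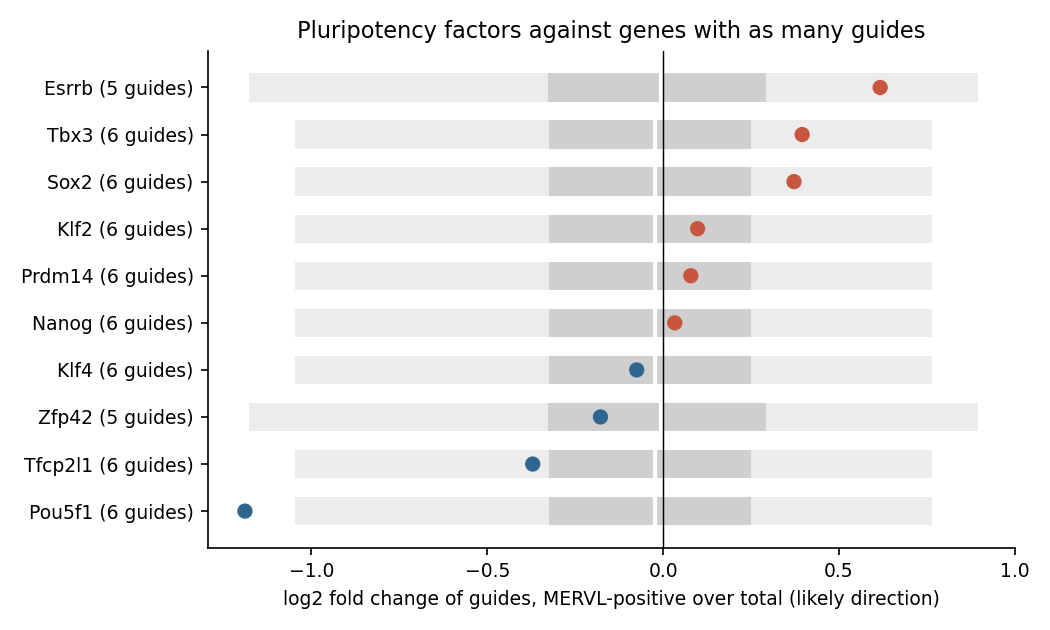
Log2 fold change of guides for each of the 10 factors (points, red above 0 and blue below 0), on the likely reading of MERVL-positive over total cells. Light bars span the central 95% of all genes with the same number of guides, dark bars the central 50%, and white ticks their medians; Pou5f1 alone lies outside its light bar.

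Among the core factors, Pou5f1 had the lowest value of the 10. Pou5f1 encodes OCT4, the POU-homeodomain factor without which stem cells turn towards trophectoderm, and lies on chromosome 17 from 35506032 to 35510777 (GRCm38.p6, as all positions here). Its log2 fold change was -1.19 per the authors' deposited table, a ratio of 0.439. Of its 6 guides, 5 were past the guide threshold for depletion and none was past that for enrichment per the authors' deposited table. Its p for depletion was 0.0649, with a false discovery rate of 0.977 per the authors' deposited table, so the low value did not pass. Of the 16270 genes with 6 guides, 254 had a lower log2 fold change, which places Pou5f1 at the 1.56th percentile. By p it stood less far out. In the authors' deposited table, 1089 genes with 6 guides had a lower depletion p, or 6.69% of them. The same guide pattern, 5 down and none up, was found in 180 genes with 6 guides, with log2 fold changes from -2.26 to -0.31 and a median of -0.86. Their median depletion p was 0.0507 per the authors' deposited table, so Pou5f1 was lower in fold change than the median of these genes but not in p.

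Sox2, the HMG-box partner of POU5F1 (chromosome 3 from 34649995 to 34652461), had a value on the other side of 0. The log2 fold change was 0.37 and the enrichment p 0.334 per the authors' deposited table, which puts 3 guides up, 2 down and 1 past neither threshold. Nanog, a homeodomain factor (chromosome 6 from 122707489 to 122714633), lay near the middle of all genes. Its log2 fold change was 0.033 per the authors' deposited table, with 1 guide up, 2 down and 3 past neither threshold. Its enrichment p of 0.478 and depletion p of 0.358 per the authors' deposited table were both far from 0.05. The 3 core factors thus spread over 83.7%, 55.3% and 1.56% of genes with 6 guides for Sox2, Nanog and Pou5f1, where the share is of genes with a lower value. With no spread between libraries, the distance between Pou5f1 and Sox2 has no test.

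Within the wider naive network, Esrrb had the highest value of the 10. ESRRB is an orphan nuclear receptor that can replace other factors of the network (chromosome 12 from 86361117 to 86521628). Its log2 fold change was 0.62 per the authors' deposited table, a ratio of 1.53. Of its 5 guides, 4 were up, none was down and 1 was past neither threshold per the authors' deposited table. Its p for enrichment was 0.0223, with a false discovery rate of 0.985 per the authors' deposited table, with rank 486 of 22510 entries. Among the 3307 genes with 5 guides, 276 had a higher log2 fold change and 73 a lower enrichment p per the authors' deposited table, which is 2.21% of them for p. The pattern of 4 guides up and none down was shared by 84 genes with 5 guides, or 2.54%. Their median log2 fold change was 0.65 and their median enrichment p 0.0848 per the authors' deposited table, so Esrrb lay close to the median of these genes in fold change and had a lower p.

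Tbx3, a T-box factor that acts downstream of LIF signalling (chromosome 5 from 119670534 to 119684724), came second. Its value was 0.40 per the authors' deposited table, but its guides were divided, with 4 up and 2 down. The enrichment p was 0.318 per the authors' deposited table. Of the genes with 6 guides, 2422 had a higher log2 fold change, so this value is common in the screen. Prdm14, a PR-domain zinc finger protein that represses FGF receptor signalling and DNA methyltransferases in stem cells (chromosome 1 from 13113428 to 13127163), had a value of 0.079 per the authors' deposited table. Its guides were evenly divided, 2 up and 2 down, with an enrichment p of 0.463 and a depletion p of 0.730 per the authors' deposited table.

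Tfcp2l1, a grainyhead-type factor induced by LIF and STAT3 (chromosome 1 from 118627923 to 118685168), had the second-lowest value. Its log2 fold change was -0.37 per the authors' deposited table, a ratio of 0.773, and 4 of its 6 guides were down and none up. Its p for depletion was 0.170, with a false discovery rate of 0.997 per the authors' deposited table. It lay above 21.9% of genes with 6 guides in log2 fold change, and 17.2% of them had a lower depletion p per the authors' deposited table. Pou5f1 and Tfcp2l1 were the members with no guide up and at least 4 down. The same held for 547 of the 16270 genes with 6 guides, or 3.36%, a pattern picked out after the members' values were seen.

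Klf2 and Klf4, zinc finger factors with overlapping roles in stem cells, both lay near 0. Klf2 (chromosome 8 from 72319062 to 72321654) stood at a log2 fold change of 0.098 per the authors' deposited table, with 3 guides up, 2 down and an enrichment p of 0.389. Klf4 (chromosome 4 from 55527137 to 55532475) had one of -0.075 per the authors' deposited table, with 1 guide up, 2 down and 3 past neither threshold. Neither end of the ranking held Klf4, with an enrichment p of 0.877 and a depletion p of 0.772 per the authors' deposited table. The screen targeted them separately, and double knockouts were not analysed here. Zfp42, a zinc finger relative of YY1 that is widely used as a marker and is dispensable for stem cell renewal (chromosome 8 from 43295067 to 43307009), had a value of -0.18 per the authors' deposited table. Of its 5 guides, 1 was up and 2 were down, and its depletion p was 0.526 per the authors' deposited table.

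Ordered by log2 fold change, the members ran Esrrb, Tbx3, Sox2, Klf2, Prdm14, Nanog, Klf4, Zfp42, Tfcp2l1 and Pou5f1. The 8 steps between the first 9 members were between 0.019 and 0.27 on the log2 scale. The last step, from Tfcp2l1 to Pou5f1, was 0.82. For scale, the central 95% of genes with 6 guides ran from -1.05 to 0.77, and that of genes with 5 guides from -1.18 to 0.90. Pou5f1 was outside its range and the other 9 members were inside theirs. These ranges describe the spread among genes and are not an error of any 1 value.

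Over the 58 guides of the members, 19 were up, or 32.8% (exact 95% interval 21.0 to 46.3), where all genes together had 37.4% up per the authors' deposited table. Down were 23, or 39.7% (27.0 to 53.4), against 38.0%. Both intervals hold the share over all genes, cover counting error only, and treat guides of 1 gene as separate although they share a target. In 7 of the 10 members guides were past both thresholds, in opposite directions, as in 87.0% of genes with 5 or 6 guides. The 3 members without such opposition were Esrrb, Tfcp2l1 and Pou5f1. These guide thresholds are loose, since about 3 in 4 guides of all genes pass one or the other, and a guide past one need not have changed.

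**Figure D2:**
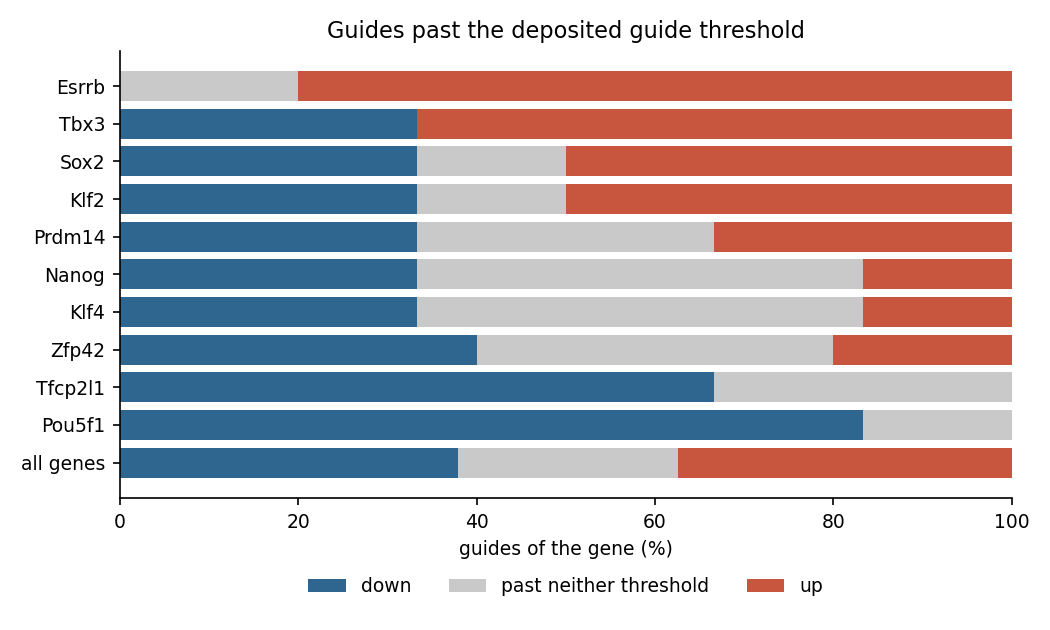
Share of each gene's guides past the deposited guide threshold for depletion (blue, down), for enrichment (red, up) or past neither (grey), with the shares over all genes in the last bar. Pou5f1 and Tfcp2l1 have no guide up, Esrrb has none down, and the other 7 factors have both.

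Each factor was set beside relatives of its DNA-binding family, many of which are usually silent in stem cells; their expression was not measured here. Pou5f1 was lower than all 15 POU relatives, whose values ran from -0.83 for Pou2f2 to 0.54 for Pou4f3 per the authors' deposited table, with a median of 0.17. Esrrb was higher than 11 of 12 nuclear receptors of the steroid-receptor type and their kin, whose median was 0.031. Only Pgr, the progesterone receptor, was higher among them, at 1.07 per the authors' deposited table. The closest relatives of Esrrb were near 0 or below, with Esrra at -0.15 and Esrrg at -0.015 per the authors' deposited table. Tbx3 was higher than 15 of 16 T-box genes (median -0.097) and Sox2 higher than 18 of 19 SOX genes (median 0.0047). The genes above them were Tbx5 at 0.51 and Sry at 0.97 per the authors' deposited table. These are places in a ranking without a test, since each gene has 1 value.

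Other members were within the run of their families, except Zfp42. Of 24 KLF and SP genes, 16 were lower than Klf2 and 9 lower than Klf4, in a run from -1.24 for Sp7 to 0.69 for Klf17 per the authors' deposited table. Klf5, a further KLF of the naive network, had a value of -0.61 with a depletion p of 0.156 per the authors' deposited table. Prdm14 was higher than 12 of 16 PRDM-type genes, while Cbfa2t2, the corepressor that PRDM14 binds, had a value of -0.65 and a depletion p of 0.283 per the authors' deposited table. Nanog was higher than 19 of 33 NK-like homeobox genes. Tfcp2l1 was higher than 1 of 5 genes of the CP2 and grainyhead family, where Tfcp2 was at -0.28 and Ubp1 at 0.081 per the authors' deposited table. Zfp42 was lower than both Yy1 and Yy2, at 0.66 and 0.16 per the authors' deposited table. Yy1, a broadly expressed regulator, had 4 of 6 guides up, none down and an enrichment p of 0.0686 per the authors' deposited table.

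**Figure D3:**
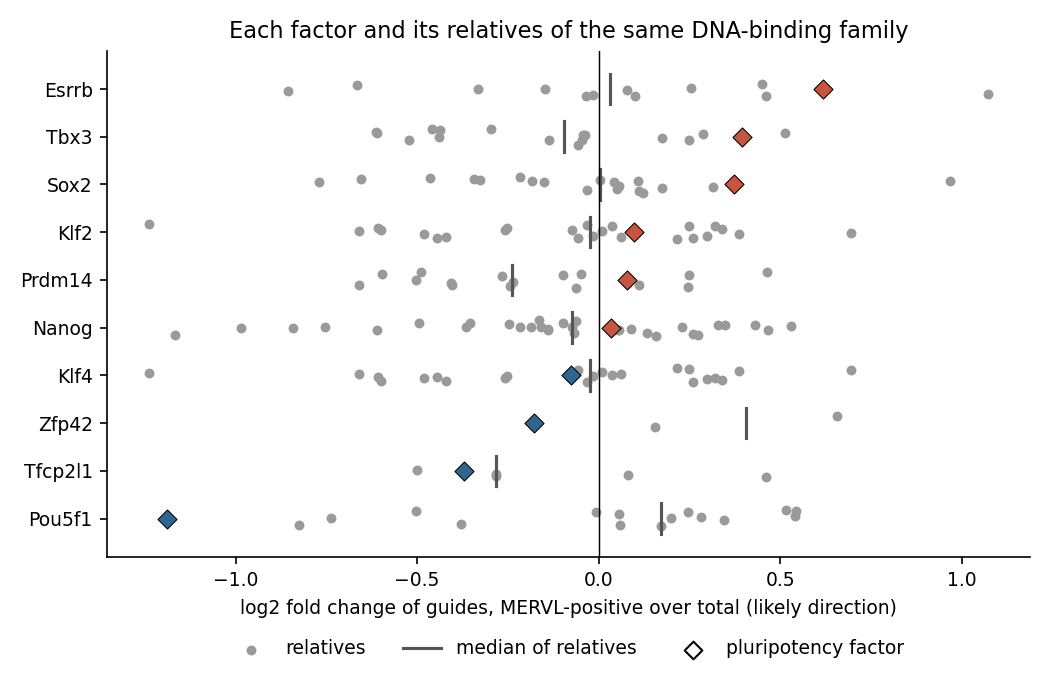
Log2 fold change of guides for each factor (diamonds, red above 0 and blue below 0) and for relatives of its DNA-binding family (grey points, jittered vertically; dark ticks are medians). Pou5f1 lies below all 15 POU relatives, and Esrrb, Tbx3 and Sox2 each lie above all relatives but 1.

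The wider network was described with lists chosen by function. Of 30 other transcription and chromatin factors of pluripotency, 19 had a log2 fold change below 0 per the authors' deposited table, where 52.0% of all genes did. Their median was -0.095, beside -0.021 over all genes. At an unadjusted p under 0.05 none passed for enrichment, against 5.02% of all genes, and 1 for depletion, against 5.07%, per the authors' deposited table. That gene was Tcf7l1, a repressor of the naive network, with a log2 fold change of -1.12, 4 of 6 guides down, 1 up and a depletion p of 0.0483 per the authors' deposited table. At the other end, Myc had a value of 0.87 and Sall4, a zinc finger partner of POU5F1, one of 0.83 per the authors' deposited table, with enrichment p-values of 0.106 and 0.252. Myc had 4 guides and Sall4 had 5, fewer than the usual 6. Nr5a2, a nuclear receptor that can stand in for Pou5f1 in reprogramming, was at -0.66 per the authors' deposited table, with a depletion p of 0.322. The BTB-domain factor Nacc1 was at -0.78 and the nuclear receptor Nr0b1 at -0.036 per the authors' deposited table, neither with a p under 0.05. Outside this list, the close relatives Sox15, Sox3 and Pou5f2 were at -0.34, -0.18 and 0.056 per the authors' deposited table. None of these relatives had a p under 0.05.

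A list of 26 genes was tied to exit from the naive state, though not all of them promote it. They had a median of -0.075. Of these genes, 3 passed an unadjusted enrichment p of 0.05 and 2 a depletion p of 0.05 per the authors' deposited table. Over all genes 5.02% passed for enrichment and 5.07% for depletion, so these are small counts to set against that background, as are those of the lists that follow. Those for enrichment were Zic2, a zinc finger factor of the primed state, the NuRD subunit Mbd3, and Nprl2, a restraint on mTORC1, with log2 fold changes of 0.81, 0.69 and -0.55 per the authors' deposited table. Those for depletion were Tcf7l1 and Grhl2, a grainyhead factor of epithelial genes, which had 5 of 5 guides down, a value of -0.50 and a depletion p of 0.017 per the authors' deposited table. The lowest value of this list was -1.53, for the microRNA processing factor Dgcr8, with a depletion p of 0.0847 per the authors' deposited table. In the 25 genes of the FGF and ERK pathway, which opposes the naive state, 1 passed for enrichment and none for depletion at an unadjusted p under 0.05 per the authors' deposited table, beside 5.02% and 5.07% of all genes. The median was 0.033, over a list that holds feedback inhibitors of the pathway beside its activators. Its values ran from -1.29 for the adaptor Grb2 to 0.76 for Hras per the authors' deposited table. The 30 early lineage factors, usually silent in stem cells, had 3 that passed for enrichment and none for depletion per the authors' deposited table, beside the same 5.02% and 5.07% of all genes. Their median was 0.010. The 3 were Cdx2, T and Isl1, with values of 0.65, 0.17 and -0.075 per the authors' deposited table. Of the 6 guides of Cdx2, a trophectoderm factor, 5 were up and none down. Its enrichment p was 0.0419, with a false discovery rate of 0.985 per the authors' deposited table.

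LIF acts through its receptor and JAK kinases on STAT3, which induces Klf4 and Tfcp2l1. Of 12 genes of this pathway, 10 had a log2 fold change below 0 per the authors' deposited table, against 52.0% of all genes. The median was -0.31, beside -0.021 over all genes and 0.056 for the 10 factors. Neither the count nor the median gives a direction of pathway activity, since the list holds inhibitors of STAT3 signalling beside activators. For depletion 2 of the 12 had an unadjusted p under 0.05 and for enrichment none per the authors' deposited table, beside 5.07% and 5.02% of all genes. Jak2 was the lowest at -2.24, with 6 of 6 guides down and a depletion p of 0.000193 (false discovery rate 0.482), and Jak1 had a value of -0.57 and a depletion p of 0.0458 per the authors' deposited table. Stat3 itself was at -0.094 per the authors' deposited table. Grb2, at -1.29, and Ptpn11, the highest at 0.35, were counted both here and in the FGF and ERK pathway per the authors' deposited table.

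**Figure D4:**
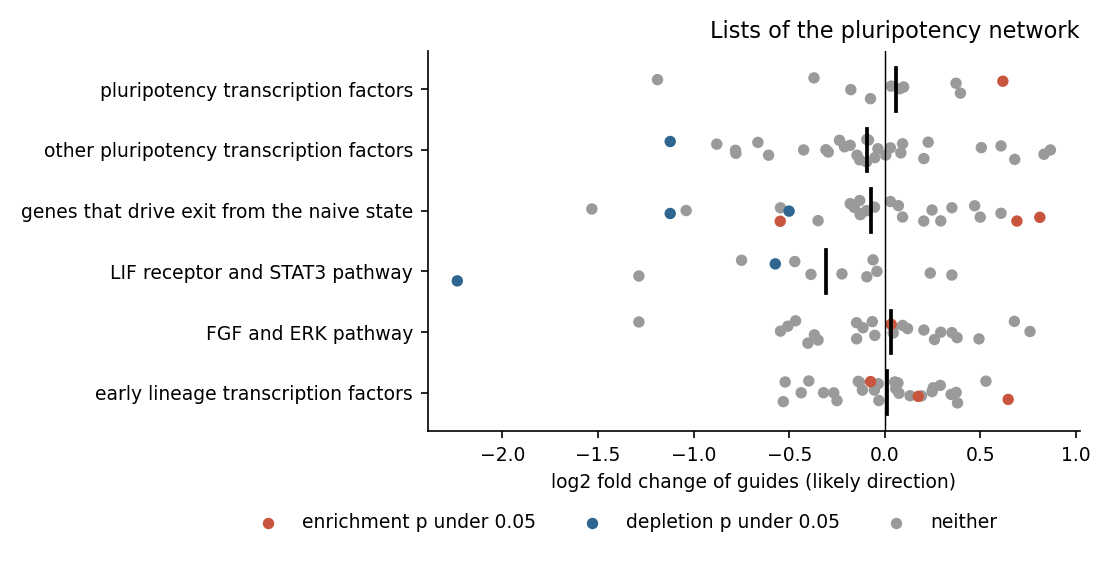
Log2 fold change of guides for the 10 factors and for the genes of 5 lists around them (points, jittered vertically), with black ticks at the medians. Red and blue points have an unadjusted deposited p under 0.05 for enrichment and depletion; the 10 factors hold 1 red point, Esrrb, and the LIF list holds Jak2 at -2.24.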

How the data were processed

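Guide DNA was amplified from 2 libraries of MERVL-positive and 2 of total cells. The authors' comparison was made with MAGeCK on build mm10, per the submitters' processing notes; the sources used here do not give its version, settings, numerator or normalization. The authors deposited, per the file headers, for each of 22510 entries a count of guides and of guides past a threshold in each direction, a score, p-values with false discovery rates, a rank and a log2 fold change. The base of 2 is taken from MAGeCK's usage. The score columns were not used beyond their ranks. By their names, the entries comprise 20380 genes, 1132 microRNAs and 998 non-targeting guides. Since counts per library are absent from the table, the deposited p-values were used, with a threshold of 0.05, in place of a count model. Percentiles, medians and shares were computed with Python 3.11.15, pandas 2.3.3 and scipy 1.17.1 and tested on simulated data. Positions came from RefSeq's GRCm38.p6 table.

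The members and the 15 other lists were chosen with earlier results of these data known. Of 250 genes named in members and lists, 249 were in the table by the same symbol. Eligible for naming were all members, close relatives and partners, list genes with an unadjusted p under 0.05, and the highest and lowest of each list. Stat3 was named after its value was seen. Alternatives were other thresholds, zero points, summaries and rankings, and leaving out members.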

Additional observations from a re-analysis of the deposited data

How the results depend on the processing

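No paired analysis was possible because the table holds 1 comparison and no value per library; for the same reason the alternatives for guide counts (normalization, count filter, replicates left out) were not run. No member passed a false discovery rate of 0.1 or 0.25 either. At a p threshold of 0.01 the number of members passing for enrichment was 0, and at 0.1 that for depletion was 1, Pou5f1. The mean of the members was -0.022, beside a mean of -0.053 over all genes. Their median was 0.037 after subtracting the median of non-targeting guides and 0.025 after subtracting that of olfactory receptor genes. The sign thus depends on the summary. Both mean and median of the members lay slightly above those of all genes, which was not tested. Leaving out each member in turn gave medians from 0.033 to 0.079. With 3 other zero points, 0 of the 10 members changed the sign of the log2 fold change, though Nanog came to 0.0019 against olfactory receptor genes. Ranked by log2 fold change or by the deposited ranks, 6 members stayed on the same side of the middle of all genes: Esrrb, Tbx3, Sox2 and Prdm14 above it, Tfcp2l1 and Pou5f1 below. The other 4 (Klf2, Nanog, Klf4 and Zfp42) lay on both sides, depending on the ranking. The guide shares of the members ran from 28.3% to 36.5% up and from 34.6% to 43.4% down with each member left out. The few sorted cells per guide and the unknown depth limit every value.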

Other observations

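In 3 genes of the lists, Isl1, Nprl2 and Tbx2, an unadjusted enrichment p under 0.05 stood beside a log2 fold change below 0. The share of all genes with such a pair of values was not counted, so this is not shown to be particular to these lists. Isl1, a LIM-homeodomain factor, had an enrichment p of 0.00977 with a log2 fold change of -0.075, 3 guides up and 3 down per the authors' deposited table. Nprl2, a subunit of the GATOR complex that restrains mTORC1, had an enrichment p of 0.00774 with a value of -0.55, 2 guides up and 3 down per the authors' deposited table. Tbx2, the closest relative of Tbx3, had an enrichment p of 0.0333 with a value of -0.044 per the authors' deposited table. For T and Araf the value was above 0 but small. The mesoderm factor T, or Brachyury, had an enrichment p of 0.0168 with a value of 0.17, 3 guides up and 2 down per the authors' deposited table. Araf, a kinase above ERK, was the gene of its pathway that passed for enrichment, with a p of 0.0156 and a value of 0.033 per the authors' deposited table. These p-values are unadjusted, and none of these genes had a false discovery rate under 0.05 per the authors' deposited table.

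Among the members' families, Sox4 had 5 of 6 guides down, a value of -0.65 and a depletion p of 0.0349, and Sox11 had an enrichment p of 0.0234 with a value of 0.12 per the authors' deposited table. Esr1, an estrogen receptor, had 4 of 6 guides up, a value of 0.46 and an enrichment p of 0.0272 per the authors' deposited table. Msx1 and Nkx6-2, homeobox genes of the NK-like group, had depletion p-values of 0.0469 and 0.0492 with values of -0.19 and -0.98 per the authors' deposited table. At an unadjusted p under 0.05, 1 of 19 SOX, 1 of 12 nuclear receptor and 2 of 16 T-box genes passed for enrichment. For depletion 1 of 19 SOX, 2 of 33 NK-like and 1 of 5 CP2 and grainyhead genes passed. The POU, KLF, PRDM and YY1 lists had none in either direction. Over all genes 5.02% passed for enrichment and 5.07% for depletion. None of the genes named here had a false discovery rate under 0.05 per the authors' deposited table.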
